A study of Homo sapiens with 44 samples.

Results

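The guanylate-binding proteins GBP1, GBP2, GBP3, GBP4 and GBP5 were followed by their row symbols in a table of estimated RNA-seq counts. All 5 are among its 40663 symbols, and all 5 are among the 9513 genes that were tested. The cells were Ccd-18Co, a fibroblast line from normal human colon, and so stand for 1 line and not for several donors. Wells of a 48-well format received 25000 cells, which spent 72 h without serum before a stimulation of 24 h. The 11 groups held 4 libraries each and were cells without cytokine (unstimulated), cells with IL-1β at 0.1 ng/ml, and cells with IFNγ, IFNα, TNF, OSM, TGFβ1, IL-22, IL-17A, IL-13 or IL-6 at 10 ng/ml. The IL-1β dose is that of the labels, and a figure legend of the study gives a lower one. No source names a genetic change in any group. Nothing in the labels says that the 4 libraries of a group came from separate cultures, so p-values measure only the spread between these samples, which may be technical.

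Guanylate-binding proteins are large GTPases of the dynamin superfamily and are among the classical products of cells exposed to interferon. IFNγ signals through JAK1 and JAK2 to GAS elements, and IFNα signals through JAK1 and TYK2 to ISRE elements, where IRF9 takes part. The proteins assemble on the surface of bacteria and of vacuoles that hold parasites, and there they help to bring caspase-4 to bacterial lipopolysaccharide. GBP1 starts this coat, GBP2, GBP3 and GBP4 join it, and GBP5 is known for its part in inflammasome assembly and, with GBP2, for inhibition of the protease furin. GBP1 is farnesylated, GBP2 and GBP5 carry a geranylgeranyl lipid, and GBP3 and GBP4 lack the lipid anchor of these relatives.

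The 5 genes lie in 1 cluster on the minus strand of chromosome 1 (GENCODE release 44, GRCh38). From the lower to the higher coordinate these are GBP3 (89006679 to 89022894), GBP1 (89051882 to 89065360), GBP2 (89106132 to 89150456), GBP4 (89181144 to 89198942) and GBP5 (89256189 to 89272860), a span of 266182 bases. GBP7 is annotated between 89131742 and 89176009 and overlaps the GBP2 model, and GBP6 and the pseudogene GBP1P1 follow GBP5 on the plus strand. The main transcripts hold 11 exons each, except that of GBP5 with 12.

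Promoters of GBP1, GBP3 and GBP4 were read from RefSeq (GRCh38.p14, 250 bases before and 50 after the start, 3 of the 5 members matched). They were searched on both strands for the ISRE pattern GAAA NN GAAA, the GAS pattern TTCNNNGAA and the κB motif. The patterns searched for overlap in none of the windows printed here, which are shown because the results turn on IFNα, IFNγ and TNF. Capitals mark the match, and all windows are 5′ to 3′ on the minus strand.
GBP1, ISRE, chr1:89065316-89065345: aacgaagtacTTTCAGTTTCatattactct
GBP3, GAS then ISRE, chr1:89022853-89022882: cTTCCTTGAAagaagtacTTTCAGTTTCat
GBP4, ISRE, chr1:89198927-89198956: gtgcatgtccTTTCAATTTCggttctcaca
GBP4, κB, chr1:89198968-89198997: ttgataaacaGGAAAATCCCcaacagtcaa

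All 3 promoters held an ISRE match, which 3.57% of the 35116 RefSeq promoters of this length held. Its first base stood 127 bases before the RefSeq start in GBP1, 4 before it in GBP4 and 2 after it in GBP3. The GENCODE models of GBP1 and GBP3 begin further upstream, at 89065360 and 89022894. The windows printed for these 2 genes lie inside those models, so distances from the start depend on the annotation. GBP3 also held a GAS match (7.66% of promoters), 15 bases before the start and with 8 bases between it and the ISRE. GBP4 held a κB match (5.91% of promoters) 45 bases before the start. GBP1 and GBP3 had a run of 19 bases in common, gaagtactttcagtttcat, which includes the ISRE letters of both. These matches are letters in a window and were not measured as bound sites.

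Parts of the 5 transcripts read alike, which matters for how a read is assigned. Of the 31-base words in the GBP1 transcript, 26.8% also occur in another gene of the family, 18.3% in GBP1P1 and 9.78% in GBP3. For GBP3 the share with the family was 11.9%, for GBP2 4.36%, for GBP4 2.29% and for GBP5 0.354%. In genes outside the family occur 12.4% of the words of GBP4, some of them also in the family, and 4.76% of those of GBP5. The levels of GBP1, GBP3 and GBP1P1 are therefore less certain with respect to each other than those of the other members.

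The libraries held between 742173 and 2213424 estimated counts (median 1480883). Values below are CPM, counts scaled to the normalized library size, and 3 counts correspond to 1.39 to 3.85 CPM depending on the library. All 10 fibroblast markers were tested. COL1A1, COL1A2, COL3A1, DCN and LUM were at 714 CPM or more in all 44 libraries, while the lowest values of the others were 337 CPM for VIM, 198 for FBN1, 30.0 for COL6A1, 16.9 for THY1 and 1.33 for PDGFRB, which was over 3 counts in 41 libraries. Their summed level was 29379 to 41365 CPM in unstimulated cells, 26532 to 35012 after IFNα and 16824 to 33798 after IFNγ. The median log2 fold change of the 10 was -0.50 after IFNγ and -0.36 after IFNα, with 3 lower by adjusted p each time, and -0.69 after TNF, with 6 lower by adjusted p and 2 of these called (edgeR). It was -0.49 after TGFβ1, with 5 lower by adjusted p and 0 of these called, and -0.47 after IL-1β, with 4 lower and 1 called (edgeR). After IL-17A it was -0.15, with 1 lower and called, and after IL-13 it was 0.36, with 2 higher and 1 called (edgeR). The part of these shifts in the results on the members was not tested. A gene was called where its Benjamini-Hochberg adjusted p over the 9513 genes was under 0.05 and its log2 fold change was beyond 1.5 in either direction. AIF1, CD3D, CD3E, CD79A, MS4A1 and KDR were at 0 in every library, PTPRC did not exceed 2 counts, and EPCAM did not exceed 1 count. VIL1, an epithelial marker, reached 44 counts, and no endothelial marker exceeded 4. Of the 9 immune markers, CD68, a lysosomal protein that fibroblasts also make, was the only one with enough counts to be tested. The summed level of these 9 markers was 0 to 9.30 CPM in unstimulated cells, 8.31 to 20.6 CPM after IFNγ and 37.99 to 73.8 CPM after IFNα, and its part in the results below was not tested.

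**Figure D1:**
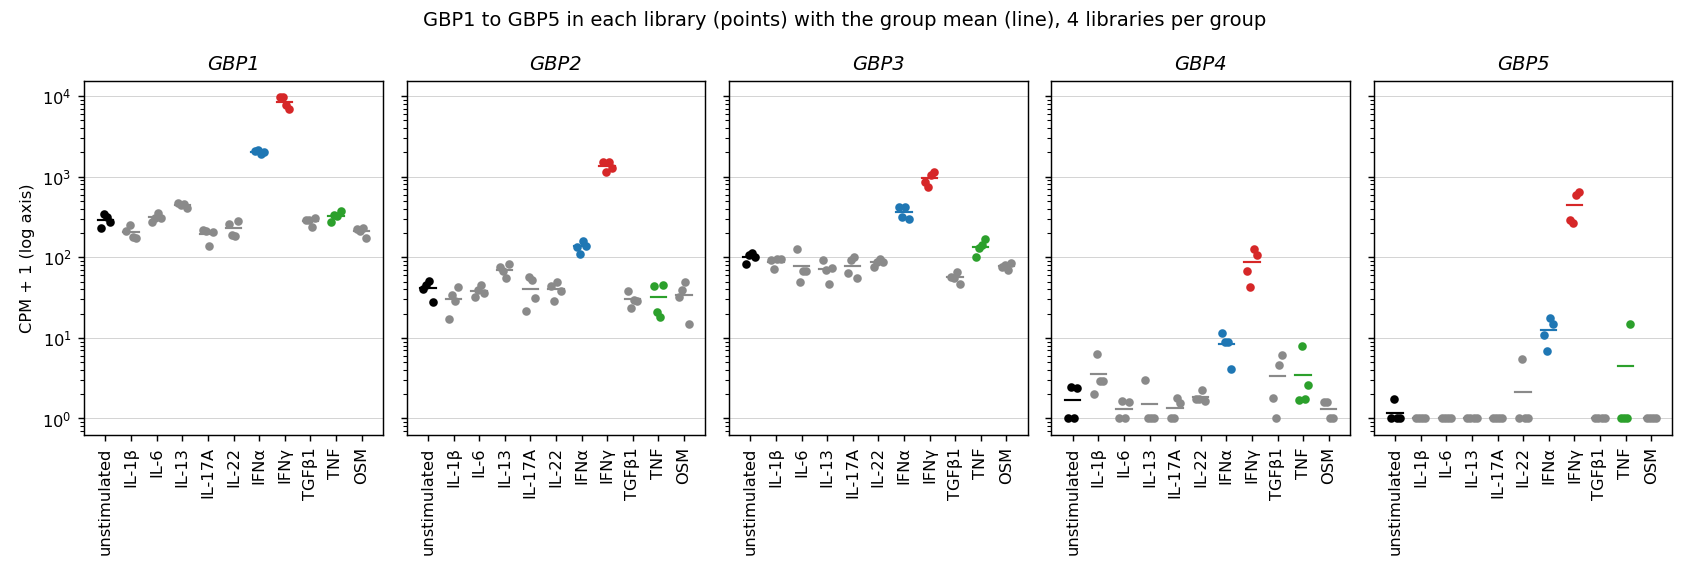
Level of each member in each of the 44 libraries as CPM plus 1 on a log axis, with points for the 4 libraries of a group and a line at their mean. The IFNγ libraries stand above all others in every panel, the IFNα mean comes next, and GBP4 and GBP5 lie near 0 CPM in most of the other groups.

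IFNγ raised all 5 members above every unstimulated library. GBP1, which starts the coat on bacteria, stood at 230, 341, 319 and 275 CPM in the 4 unstimulated libraries and at 9675, 9699, 7699 and 6821 CPM after IFNγ. The means were 291 ± 49.4 and 8474 ± 1447 CPM (SD, n = 4), a 29.1-fold rise, and the fitted log2 fold change was 4.86 (SE 0.19, adjusted p = 1.8e-24 in edgeR's quasi-likelihood test). No other gene of the 9513 tested had a smaller p-value in this comparison. By mean CPM, GBP1 moved from place 639 among the tested genes to place 5. In bulk RNA, a change in the number of expressing cells and a change in RNA per cell cannot be told apart.

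GBP2, the partner of GBP5 in furin inhibition, stood at 39.7, 43.7, 49.96 and 26.6 CPM without cytokine and at 1513, 1134, 1521 and 1290 CPM after IFNγ. The groups did not overlap, and the mean rose 34.1-fold (log2 fold change 5.09, SE 0.31, adjusted p = 2.1e-17, edgeR). GBP3, a member of the coat that lacks the lipid anchor, stood at 81.8, 105, 111 and 101 CPM without cytokine and at 850, 751, 1056 and 1151 CPM after IFNγ. It rose 9.54-fold, the smallest change of the 3 members that were measurable before stimulation (log2 fold change 3.26, SE 0.23, adjusted p = 2.2e-15, edgeR). The 95% intervals of the log2 fold change were 2.81 to 3.70 for GBP3, 4.50 to 5.23 for GBP1 and 4.49 to 5.69 for GBP2, so that the interval of GBP3 lay below both others.

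GBP4 and GBP5 were at or near 0 without interferon. GBP4 stood at 0, 1.46, 0 and 1.37 CPM without cytokine, 4 counts in all, and at 66.3, 42.4, 126 and 107 CPM after IFNγ. GBP5 stood at 0 in 3 unstimulated libraries and at 1 count (0.73 CPM) in the other, and at 288, 267, 590 and 648 CPM after IFNγ. Both were called higher (adjusted p = 2.9e-08 for GBP4 and 8.2e-09 for GBP5, edgeR). From the summed counts the ratio was 134 for GBP4, with an exact 95% interval of 52.1 to 495, and 2839 for GBP5, with an interval of 509 to 112170, which covers counting error only. The upper bound for GBP5 rests on a single unstimulated count and sets no size. Across the 36 libraries without interferon, GBP4 reached 10 counts in 0 and GBP5 in 1, against 7 of the 8 interferon libraries for each. These 2 genes thus owe their place among the tested genes to the interferon libraries, and the count of 5 of 5 members called higher is a description. Of all genes tested, 2.4% were called higher after IFNγ, and 6.07% had all 4 libraries above the unstimulated ones.

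The IFNγ libraries differed among themselves more in GBP4 and GBP5 than in the other members. The SD was 44.4% of the mean for each of GBP4 and GBP5, against 17.1% for GBP1, 13.7% for GBP2 and 19.3% for GBP3. Replicates 1 and 2 had the higher GBP1 and the lower GBP3, GBP4 and GBP5, and replicates 3 and 4 the reverse. GBP2 did not divide the libraries in this way. The libraries also differed over all genes with enough counts, by chi-square per degree of freedom between 2 libraries. It was 5.08 for replicates 3 and 4, 9.07 for 1 and 3, 13.0 for 1 and 4, 13.4 for 1 and 2, 23.8 for 2 and 3 and 33.4 for 2 and 4. The total counts were 1329286 and 1423038 in replicates 1 and 2 and 1125442 and 1256207 in replicates 3 and 4. The part of depth, or of the wider difference between libraries, in the split of the members was not tested.

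IFNα also raised the 5 members, and to lower levels than IFNγ. GBP1 stood at 2089, 2135, 1884 and 2027 CPM and was 6.99-fold above unstimulated cells (log2 fold change 2.81, SE 0.17, adjusted p = 1.5e-17, edgeR). GBP2 stood at 134, 110, 159 and 139 CPM, a 3.39-fold rise (log2 fold change 1.76, SE 0.28, adjusted p = 7.5e-06, edgeR). GBP3 stood at 421, 317, 421 and 293 CPM, a 3.64-fold rise (log2 fold change 1.87, SE 0.22, adjusted p = 6.9e-09, edgeR). In all 3 genes every IFNα library was above every unstimulated one, as it was for 7.98% of genes.

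GBP4 stood at 10.5, 7.90, 7.94 and 3.11 CPM after IFNα and GBP5 at 9.92, 5.93, 16.7 and 13.7 CPM, which are 46 and 70 counts in all. Each library was above the unstimulated ones, and both genes were called higher (adjusted p = 0.0050 and 0.0028, edgeR). The ratio of summed counts was 11.7 for GBP4 (exact 95% interval 4.27 to 44.7, counting error only). For GBP5 it was 71.1 with an interval of 12.4 to 2849. In DESeq2 the adjusted p of GBP5 was 0.350, so that its call after IFNα depends on the tool. Of all genes tested, 2.46% were called higher after IFNα, beside which the 5 of 5 members again stand as a description.

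**Figure D2:**
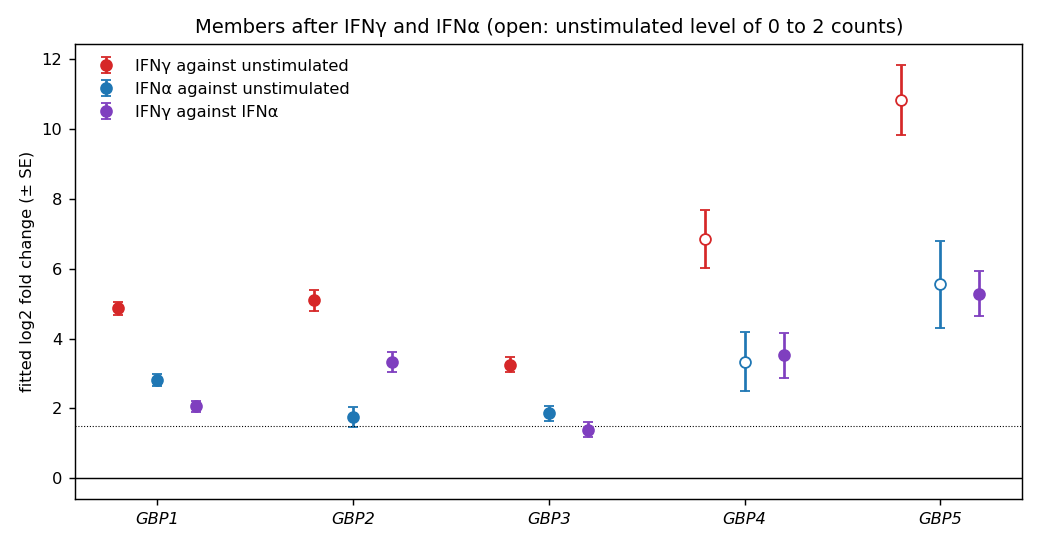
Fitted log2 fold change with its standard error for each member, for IFNγ and IFNα against unstimulated cells and for IFNγ against IFNα. Open points mark GBP4 and GBP5 against unstimulated cells, where the fitted size depends on 0 to 2 counts per control library. The dotted line is at 1.5, the fold threshold of a call.

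The 2 interferons were also compared directly, in the same fit over all libraries. All 5 members were higher after IFNγ than after IFNα in every library, which 5.91% of tested genes were. The difference was largest for GBP5 (38.8-fold, log2 fold change 5.28, SE 0.65) and followed by GBP4 (11.6-fold, 3.52, SE 0.65), GBP2 (10.1-fold, 3.33, SE 0.28) and GBP1 (4.17-fold, 2.06, SE 0.16). GBP3 differed least (2.62-fold, log2 fold change 1.39, SE 0.21, adjusted p = 5.5e-06 in edgeR) and stayed under the fold threshold of 1.5, where 4.46% of genes were higher by adjusted p alone. With 1 library left out at a time its log2 fold change ran from 1.289 to 1.502, which reaches past that threshold. It also lay above the alternative threshold of 1. The other 4 were called higher, with adjusted p from 8.3e-13 for GBP1 to 0.00015 for GBP4 (edgeR), beside 1.06% of all genes. DESeq2 called 3 of them, since its adjusted p for GBP5 was 0.358. GBP4 and GBP5 owe their place among the tested genes to the interferon libraries, so the count of members called is a description here too.

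The make-up of the family, with CPM divided by transcript length and given as a share of the sum over the 5 members, was led by GBP1 in all 11 groups. In unstimulated cells GBP1 made up 70.1% ± 1.58 of the sum, GBP3 22.95% ± 1.45 and GBP2 6.84% ± 1.54 (SD, n = 4). After IFNα the shares were 81.9% ± 3.03 for GBP1, 13.9% ± 2.51 for GBP3 and 3.86% ± 0.667 for GBP2. After IFNγ GBP1 held 79.8% ± 5.16, GBP2 9.19% ± 1.55, GBP3 8.77% ± 2.66, GBP5 1.88% ± 1.02 and GBP4 0.394% ± 0.204.

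Between IFNγ and IFNα the share of GBP2 differed by 5.33 percentage points and that of GBP5 by 1.68, with no overlap of libraries (p = 0.0286 each, 2-sided exact permutation test). This is the smallest p that 4 against 4 libraries can give, and adjusted over the 10 share tests it is 0.0714, so neither passed. The share of GBP3 was 5.11 points lower after IFNγ (exact permutation p = 0.0571) and that of GBP1 2.15 points lower (exact permutation p = 0.486). Against TNF, the IFNγ libraries had a GBP1 share 11.3 points higher and a GBP3 share 17.7 points lower, again with no overlap (exact permutation p = 0.0286 each, adjusted 0.0714). The sum of the 5 members, on the CPM scale, was 432 ± 66.5 in unstimulated cells, 2551 ± 87.6 after IFNα and 11324 ± 1046 after IFNγ, where it made up 1.13% of normalized counts.

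**Figure D3:**
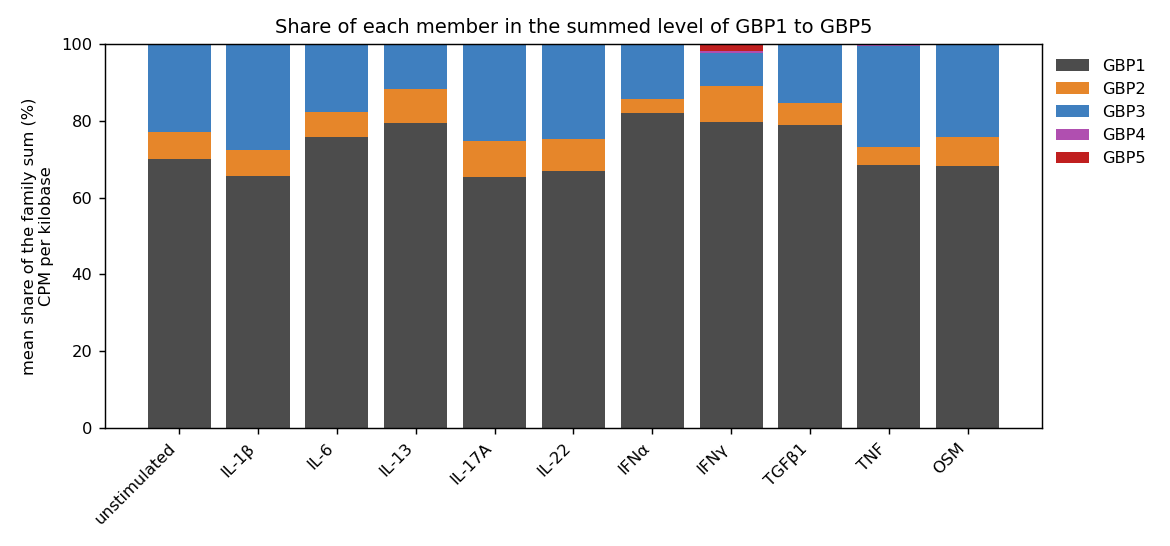
Mean share of each member in the summed level of the 5, with CPM divided by transcript length, as stacked bars that add up to 100% in each of the 11 groups. GBP1 is the largest part everywhere, GBP5 is visible only after IFNγ (1.88%), and GBP3 is 8.77% after IFNγ against 26.4% after TNF.

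TNF, which acts through NF-κB, gave no called member in edgeR (0 of 5, with 2 at an unadjusted p under 0.05, as were 2236 of the 9513 genes, and 0 in DESeq2), beside 1.85% of all genes called higher and 2.34% called lower. GBP1 stood at 273, 338, 321 and 378 CPM (log2 fold change 0.17, SE 0.16, adjusted p = 0.589, edgeR). GBP3 stood at 98.8, 128, 143 and 168 CPM (log2 fold change 0.43, SE 0.22, adjusted p = 0.212, edgeR). Both overlapped the unstimulated libraries.

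GBP5 after TNF was at 0 in 3 libraries and at 26 counts, 13.9 CPM, in replicate 4, which is within the range of the IFNα libraries. The fitted log2 fold change of 4.10 (adjusted p = 0.0690, edgeR) rests on that library and was -1.503 without it (adjusted p = 0.730). Without replicate 1, 2 or 3 in turn it was 4.46 to 4.51 and was called. Replicate 4 was also the highest TNF library for GBP1, GBP2, GBP3 and GBP1P1, though for GBP2 replicate 1 was close (43.9 against 43.1 CPM). Of 223 genes called higher after IFNγ, members left out, 37.7% had their highest TNF value in replicate 4. The like share was 36.8% for IL-1β replicate 3 within its own group, where GBP5 was at 0. Of 229 genes called higher after IFNα, 32.8% had their highest TNF value in replicate 4. No share over all genes was computed, so these shares do not set TNF replicate 4 apart.

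Both interferons were set against TNF directly. IFNγ was above TNF for all 5 members in every library (5.68% of genes) and called for all 5, while DESeq2 called 4 (GBP5 adjusted p = 0.241), with log2 fold changes of 4.69 for GBP1, 5.43 for GBP2, 2.82 for GBP3, 5.13 for GBP4 and 6.73 for GBP5 (beside 2.39% of all genes). IFNα was called higher than TNF for GBP1 (6.21-fold) and GBP2 (4.37-fold), beside 4.03% of all genes. GBP3 was 2.70-fold higher at an adjusted p of 1.6e-06 (edgeR) but under the fold threshold (8.35% of genes by adjusted p alone). GBP4 (adjusted p = 0.136) and GBP5 (adjusted p = 0.221, edgeR) were not called for IFNα against TNF. Since GBP4 and GBP5 were tested only through the interferon libraries, the counts of members called against TNF are descriptions. Without replicate 4 of TNF, 4 of the 5 members were called for IFNα against TNF, GBP4 being the exception, and without replicate 2 GBP4 was called as well (log2 fold change 2.69).

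None of the other 7 cytokines gave a called member in edgeR or DESeq2, and 4 results passed the adjusted p alone, 3 for GBP1 and 1 for GBP3. Of all genes, 1.47% were called higher after IL-1β, 0.641% after TGFβ1, 0.536% after OSM, 0.273% after IL-13, 0.242% after IL-17A, 0.0105% after IL-6 and 0% after IL-22. The shares called lower were 1.3%, 1.06%, 0.767%, 1.2%, 0.21%, 0% and 0% in the same order. For IL-22, where edgeR called 0 genes, 1037 had an unadjusted p under 0.05 and DESeq2 called 2. GBP1 was at 467, 448, 459 and 408 CPM after IL-13, the cytokine of type 2 immunity, and every library was above the unstimulated ones (4.54% of genes). The log2 fold change was 0.62 (SE 0.16, adjusted p = 0.0167, edgeR), and 1.53% of genes were higher after IL-13 at this threshold. The pass was lost without unstimulated replicate 1 (log2 fold change 0.52) or 4 (0.60). GBP2 also stood above every unstimulated library after IL-13, at 75.0, 65.6, 54.2 and 80.8 CPM, but did not pass (log2 fold change 0.78, SE 0.28, adjusted p = 0.125, edgeR). GBP3 stood lower in the mean, at 91.6, 67.9, 46.2 and 72.8 CPM (log2 fold change -0.52, SE 0.22, adjusted p = 0.216, edgeR).

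GBP1 was lower after IL-17A and after IL-1β, cytokines that drive neutrophil recruitment. After IL-17A it stood at 214, 214, 136 and 205 CPM, below every unstimulated library as were 3.62% of genes (log2 fold change -0.59, SE 0.16, adjusted p = 0.0453, edgeR, beside 0.925% of genes). After IL-1β it stood at 213, 249, 179 and 173 CPM and overlapped the unstimulated libraries (log2 fold change -0.52, SE 0.16, adjusted p = 0.0383, edgeR, beside 3.92% of genes). Leaving out 1 library at a time ended the pass for IL-17A in 7 of 8 cases and that for IL-1β in 6 of 8, with log2 fold changes between -0.69 and -0.45 for IL-17A and between -0.62 and -0.42 for IL-1β. After OSM, GBP1 lay below every unstimulated library (5.48% of genes), at 221, 212, 228 and 172 CPM, but did not pass (log2 fold change -0.48, SE 0.16, adjusted p = 0.0861, edgeR).

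GBP3 was the member that passed the adjusted p after TGFβ1, the cytokine of matrix production. Its 4 libraries stood at 56.1, 54.2, 64.4 and 46.2 CPM, all below the unstimulated range as were 5.37% of genes (log2 fold change -0.85, SE 0.23, adjusted p = 0.0156, edgeR, beside 3.08% of genes). The pass was lost without unstimulated replicate 2 (-0.81) or 3 (-0.77) or TGFβ1 replicate 4 (-0.74). GBP1 after TGFβ1 was at 285, 286, 234 and 307 CPM, with a log2 fold change of -0.06 and a 95% interval of -0.38 to 0.25. The difference between the 2 genes was not tested.

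IL-6 and IL-22 gave no member at an adjusted p under 0.05, and at an unadjusted p under 0.05 there were 0 members and 233 genes for IL-6 and 1 member and 1037 genes for IL-22. For GBP1 the 95% interval of the log2 fold change after IL-6 was -0.22 to 0.41. GBP5 was at 0 in every library of IL-1β, IL-6, IL-13, IL-17A, TGFβ1 and OSM, and in 3 of 4 libraries of IL-22. GBP4 did not exceed 8 counts in any library without interferon.

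Among cytokines compared directly, GBP1 was 1.61-fold higher after TNF than after IL-1β in every library, as were 3.69% of genes (log2 fold change 0.69, SE 0.16, adjusted p = 0.0178, edgeR), beside 0.452% of genes at that threshold. The pass was lost without IL-1β replicate 3 (0.65) or 4 (0.63) or TNF replicate 4 (0.63). GBP1 was lower after OSM than after IL-6 in every library, as were 5.62% of genes (log2 fold change -0.58, SE 0.16, adjusted p = 0.0368, edgeR, beside 1.68% of genes), a pass lost in 7 of 8 cases when 1 library was left out, with values between -0.62 and -0.48. No other member passed in either comparison, where edgeR and DESeq2 both gave 0 calls with the fold threshold. Of all genes, 0.179% were called higher and 0.189% lower for TNF against IL-1β, and 0.42% higher and 0.599% lower for OSM against IL-6. At an unadjusted p under 0.05 there were 3 members and 1091 of the 9513 genes for TNF against IL-1β, and 1 member and 1170 genes for OSM against IL-6.

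In the order of mean levels, IFNγ stood at the top and IFNα next for all 5 members. The neighbours tested here were chosen by sorting these same means, and each adjusted p covers only the genes within a pair. Passes between neighbours are therefore a description. For GBP1 the order went on with IL-13 (445 CPM), TNF, IL-6, unstimulated cells, TGFβ1, IL-22, OSM, IL-1β and IL-17A (192 CPM). Neighbours differed at an adjusted p under 0.05 from IFNγ down to TNF, and no pair below TNF did. IL-13 against TNF was at 0.0486 (edgeR), and this step was neither run with libraries left out nor set beside a share of all genes. For GBP2 the neighbours differed for IFNγ against IFNα and for IFNα against IL-13 (135 against 68.9 CPM, adjusted p = 0.00868, edgeR), and from IL-13 down to TGFβ1 (28.9 CPM) no neighbouring pair did. For GBP3 the order below IFNα was TNF (134 CPM), unstimulated cells, IL-1β, IL-22, IL-17A, IL-6, OSM, IL-13 and TGFβ1 (55.3 CPM), and only the steps above TNF passed. For GBP4 and GBP5 the step from IFNγ to IFNα was the only one that passed.

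Over the 44 libraries the log2 CPM of any 2 members correlated at r = 0.844 to 0.929, as a description, since the points share the 2 interferon groups at their high end. The genes named next are among the 5 most alike for each member, members themselves left out. GBP1 was closest to the pseudogene GBP1P1 (r = 0.936), IFI30, LAP3 and the antisense RNA USP30-AS1, and GBP3 to B2M (r = 0.906), GBP1P1, LAP3, BTN3A2 and IFI30. GBP2 was closest to CD74 (r = 0.900), HLA-DRA, APOL4, CXCL9 and IDO1, GBP4 to IDO1 (r = 0.941), CXCL9, CD74, HLA-DRA and HLA-DMB, and GBP5 to IDO1 (r = 0.940), CD74, CXCL9, HLA-DRA and GBP1P1. IDO1 degrades tryptophan, CXCL9 attracts T cells, and CD74, HLA-DRA and HLA-DMB belong to antigen presentation by MHC class II.

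Of the other symbols of the family, GBP1P1 was the only one with enough counts to be tested. It stood at 1.70 ± 0.981 CPM without cytokine, 76.3 ± 14.9 after IFNα and 244 ± 23.1 after IFNγ (SD, n = 4). IFNγ and IFNα were 1.67 apart on the log2 scale (SE 0.38, adjusted p = 0.0021, edgeR), and the words it shares with GBP1 leave the division of reads between them uncertain. GBP6 did not exceed 4 counts in any library.

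Of 14 genes of interferon signalling, 12 were tested, and 6 were called higher after IFNγ and 5 after IFNα. The median log2 fold change of the 12 was 1.60 after IFNγ and 1.25 after IFNα, against -0.01 over all genes in each comparison. IRF1, a transcription factor of the interferon response, stood at 5.05 CPM without cytokine, 15.1 ± 9.38 after IFNα and 121 ± 7.01 after IFNγ, and was the only one of the 12 called higher after IFNγ than after IFNα (log2 fold change 2.99, SE 0.47, adjusted p = 1.2e-05, edgeR). USP18, which restrains the IFNα receptor, was the only one called lower (1.68% of all genes), at 11.6 ± 2.06 after IFNγ and 243 ± 40.6 CPM after IFNα. IRF9 stood at 36.9 ± 38.2 and 43.5 ± 9.97 CPM.

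The MX GTPases, dynamin relatives with antiviral roles, had the opposite order from the guanylate-binding proteins. MX1 stood at 2.04 ± 0.963 CPM without cytokine, 23.8 ± 9.78 after IFNγ and 991 ± 172 after IFNα, and IFNγ against IFNα was -5.39 on the log2 scale (SE 0.41, adjusted p = 7e-13, edgeR). MX2 stood at 6.41 ± 3.85 after IFNγ and 243 ± 76.7 CPM after IFNα (log2 fold change -5.22, SE 0.61, adjusted p = 2e-08, edgeR). Of the 9 tested genes in the list of dynamin relatives, 3 were called lower after IFNγ than after IFNα, the third being ATL1, a shaper of the endoplasmic reticulum (-1.84, SE 0.33), and 0 were called higher in edgeR. After IFNγ and after IFNα, 2 of the 9 were called higher against unstimulated cells, MX1 and MX2 each time.

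**Figure D4:**
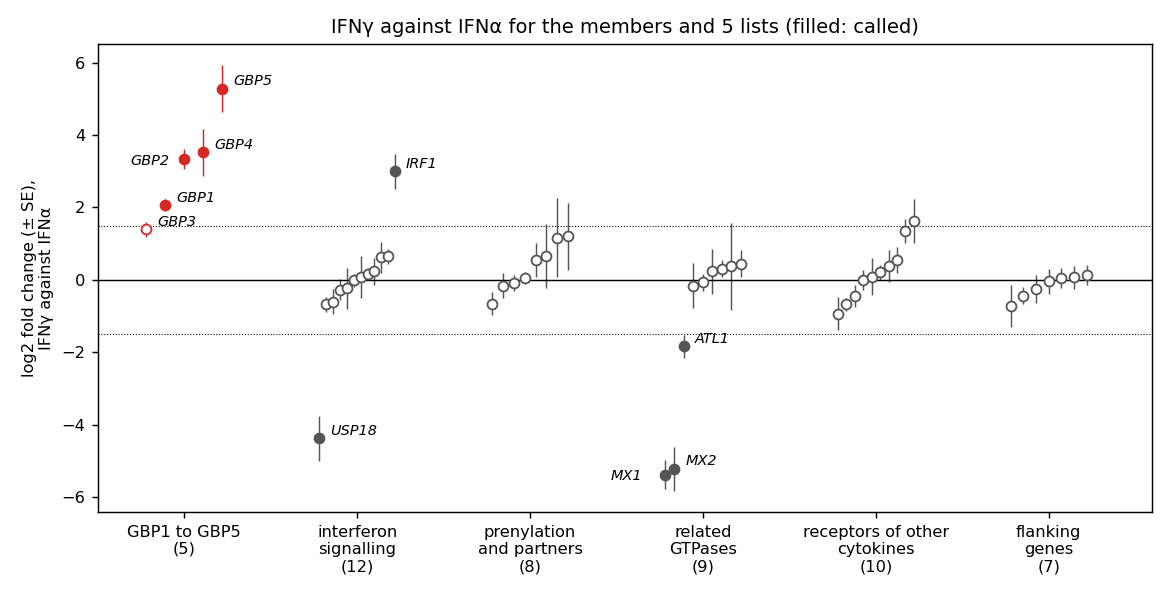
Log2 fold change with its standard error for IFNγ against IFNα, for the 5 members and for the tested genes of 5 lists, with filled points for genes called. The members lie between 1.39 and 5.28, MX1 and MX2 lie below -5, and the 7 flanking genes have a median of -0.038 with 0 called.

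Among 11 genes of lipid modification and function, 8 were tested. CASP4, the caspase that the coat recruits, stood at 392 CPM without cytokine, 790 after IFNγ and 767 after IFNα, with log2 fold changes of 1.01 and 0.97 that passed the adjusted p but not the fold threshold. GSDMD, the pore protein cut by CASP4, was called higher after IFNγ only against unstimulated cells (6.56 ± 5.02 against 0.597 ± 0.711 CPM), and the 2 interferons did not differ detectably (log2 fold change 0.65, SE 0.88). APOL3, which attacks bacteria opened by the coat, stood at 16.9 ± 11.8 CPM after IFNγ and 7.31 ± 3.73 after IFNα. RNF213, a ligase that marks bacterial lipopolysaccharide, stood at 81.7 ± 15.3 and 129 ± 26.3 CPM and was called higher after both. The tested enzymes of prenylation were not called after either interferon.

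Of 8 flanking genes 7 were tested, and 0 were called after IFNγ or after IFNα in edgeR. Their median log2 fold change was 0.29 after IFNγ and 0.51 after IFNα. RBMXL1, the neighbour of GBP3, was at 5.08 CPM without cytokine, 10.5 after IFNγ (adjusted p = 0.331) and 17.4 after IFNα (adjusted p = 0.058, edgeR). Of 15 receptor genes for the other cytokines 10 were tested, 0 were called higher after either interferon in edgeR, and LIFR, a subunit that binds OSM, was called lower after IFNα, as were 1.52% of all genes (5.45 ± 2.60 against 22.97 ± 3.20 CPM).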

How the data were processed

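RNA-seq libraries of Ccd-18Co cells (NEBNext Ultra II, NovaSeq6000) were quantified by the authors with kallisto 0.48.0, after FastQC 0.11.9 and MultiQC 1.14, and hg38 is named in their notes. The transcriptome release, the summary to genes and the use of strand are not given in the sources used here. The deposited values are estimated counts per symbol, of which 5.77% were not whole, and these were rounded. Lengths, positions and shared words came from GENCODE release 44, and promoters from RefSeq.

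Genes were kept by filterByExpr over the 11 groups and scaled by TMM. All 44 libraries entered 1 edgeR 4.0.16 quasi-likelihood fit (R 4.3.3), which was tested on simulated data. Shares were compared by exact permutation over libraries. Low counts were compared as ratios with exact conditional intervals, since fitted changes near 0 depend on the prior count. Intervals cover counting error only. No 2 of the 66 pairs of replicates held identical values.

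Members and lists (interferon signalling, prenylation and partners, cytokine receptors, dynamin relatives, flanking genes, cell type markers) were chosen with earlier results of these data known. Up to 4 genes of a list were named, by largest change after an interferon, with genes from the 5 of highest correlation with each member. Results for 1 further item are not reported here. Alternatives were DESeq2 1.42.0, its size factors, other filters and fold thresholds, fewer libraries, a replicate block, other lengths and leaving out each library.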

Additional observations from a re-analysis of the deposited data

Results flagged for a closer look

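In 7 of the 49 sets of 4 libraries with a range (5 members in 11 groups, with 6 sets all at 0), 1 library stood apart, its gap to the nearest other being above Dixon's 95% critical share of the range. Chance flags about 1 set in 20 where values vary freely, which is no reference here, since in 4 of the 7 sets the other 3 libraries were at 0 and the flag follows from that. GBP5 held 3 of them, at 13.9 CPM in TNF replicate 4, 4.52 CPM in IL-22 replicate 2 and 0.729 CPM in unstimulated replicate 2, each with the other 3 libraries at 0. GBP4 held 2, at 6.89 CPM in TNF replicate 2 and 1.99 CPM in IL-13 replicate 1. GBP1 was lowest in IL-17A replicate 3 at 136.2 CPM, and GBP3 was lowest in IL-1β replicate 2 at 70.3 CPM.

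GBP7, which had too few counts to be tested, was at 0 in all unstimulated libraries and at a mean of 3.84 CPM after IFNγ and 1.74 CPM after IFNα. It did not exceed 8 counts in any library, and its annotated model overlaps that of GBP2.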

How the results depend on the processing

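All 5 members were called for IFNγ against unstimulated cells under every alternative run. For IFNα against unstimulated cells, the fit on the 8 libraries alone called 3, since GBP4 and GBP5 were under its filter and not tested there. For TNF against unstimulated cells the count was 1 with all genes of any count and 0 to 1 when 1 library was left out. For IFNα against TNF it was 2 to 4 when 1 library was left out. Without a fold threshold it was 1 each for IL-1β, IL-13, IL-17A and TGFβ1 against unstimulated cells, for TNF against IL-1β and for OSM against IL-6, and with all genes of any count it was 1 for TNF against IL-1β. The cause of these was not tested. One fold change turned its sign, GBP5 after TNF, which was -1.503 without TNF replicate 4 and between -1.503 and 5.63 over all libraries left out in turn. Of 272 log2 fold changes with 1 library left out, 237 kept direction and side of the adjusted p threshold. The pass by adjusted p was lost in 28 and gained in 6. With other settings 189 of 200 kept direction and side of the adjusted p threshold. These counts did not use the fold threshold of 1.5, so shifts across it count as kept. Such shifts occurred for GBP3 in IFNγ against IFNα (1.289 to 1.502) and in IFNα against TNF (1.297 to 1.553). To check for pairing, each group's mean was taken from log2 CPM, and libraries of different groups were correlated over the tested genes. The mean r of these residuals was 0.024 for the same replicate number and -0.008 for different numbers. In the 15 comparisons the same-number r ran from -0.125 to 0.281, and all such pairs exceeded 0.1 in 0 of them. That rule asks for every pair, so it cannot decide whether some samples were paired. With the number as a replicate block, 5 members were called for IFNγ, and calls over all genes moved from 336 to 350 for IFNγ and from 43 to 56 for IL-17A. A floor of 1.39 to 3.85 CPM limits what can be said of GBP4 and GBP5 without interferon.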
